A study of Saccharomyces cerevisiae with 6 samples.

Results

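The small-subunit processome and 40S maturation factors of budding yeast were described here through 38 genes, each listed by its standard name and found on the array by its open reading frame identifier. The genes were chosen with earlier results of these data known. All 38 had a probe, 1 each, out of 6225 gene identifiers on the array, and all 38 were well above background on all 6 arrays, so that none entered the test through 1 group alone. The samples were cultures of the Saccharomyces cerevisiae laboratory strain BY4743, kept static at 30 °C in synthetic medium with 2% glucose. The 3 glycolaldehyde samples received 10 mM glycolaldehyde, a small reactive hydroxyaldehyde, for 4 h, and the 3 untreated samples were grown alike without it. The RNA of a group came from 3 independent starter cultures, with 1 single-colour array per sample.

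The small ribosomal subunit starts as a long ribosomal RNA precursor in the nucleolus. Box C/D ribonucleoproteins methylate that precursor, and one of them, built on the U3 small nucleolar RNA, pairs with it and anchors a very large particle, the small-subunit processome, which folds and cleaves the future small-subunit RNA. Its proteins arrive as preformed modules named UtpA, UtpB, UtpC, the Mpp10 complex and the U3 particle, joined by single factors, GTPases and RNA helicases; a later set of proteins escorts the particle out of the nucleus. In yeast the genes for these proteins are known to be transcribed together with other ribosome assembly genes, as part of a large set that follows growth and nutrients.

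The labels limit the samples in several ways. They call the strain haploid, whereas BY4743 is a diploid strain, and they call the growth anaerobic in one entry and static in another. The free-text descriptions give the treatment the other way round from the titles and the treatment entries for each of the 6 samples; groups follow the titles and treatment entries. Probes of URA3, LEU2 and HIS3, which are deleted or disrupted in BY4743, were above background on 0 of the 6 arrays, while LYS2 and MET17 (also named MET15) were above background on all 6. The mating genes STE2, STE3, MFA1, MFA2 and BAR1 were also above background on all 6. Their signals were low, from 0.749% (MFA2) to 6.21% (STE3) of the 75th percentile of all probes on the same array. The ploidy of the cultures was not tested. Signals were relative, because each array was scaled, so a lower value is a smaller share of the labelled RNA; fewer cells expressing a gene and less of its RNA per cell cannot be told apart in bulk cultures.

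The link between arrays and samples is also in doubt. In the authors' deposited value table every column matched 1 scanner file at every probe (relative tolerance 1e-06), but for 3 samples that file was attached to another sample. The column of untreated replicate 3 held the array attached to glycolaldehyde replicate 2, that of glycolaldehyde replicate 1 the array attached to untreated replicate 3, and that of glycolaldehyde replicate 2 the array attached to glycolaldehyde replicate 1. Thus the group of 2 arrays depends on the record, and that of the other 4 does not. All values below use the columns of the value table unless the scanner-file record is named. Replicates 1 and 2 of each group were scanned on day 1 and replicate 3 of both groups on day 2. Replicates 1 and 2 lay closer together (SD of log2 differences over all tested genes 0.0979 for untreated and 0.105 for glycolaldehyde) than either lay to replicate 3 (0.181 to 0.21).

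Most of the processome genes were lower with glycolaldehyde, and by modest amounts. Of the 38 genes 21 fell, 0 rose and 17 did not pass at an adjusted p under 0.05 (limma, Benjamini-Hochberg over 5944 genes tested). Over all tested genes 23.5% fell, 29.6% rose and 53.1% passed in either direction, against 55.3% of the processome genes that fell. Because the 38 genes were chosen with earlier results of these data known, these shares only describe the list, and their difference was not tested. Among 47 further 40S factors 21.3% fell. The median log2 change was -0.24 over the 38 genes and 0.03 over all tested genes, and the processome genes ran from -1.22 for NOP56 to 0.14 for IMP3. The log2 change was below 0 for 35 of the 38 genes, or 92.1%, where 45.5% of all tested genes lay below 0. For 22 of the 38 every glycolaldehyde array was lower than every untreated array, as it was for 27.1% of all tested genes. Only NOP56 and NOP58 fell at least 2-fold among the 38, and 17 of the 21 that fell had log2 changes between -0.5 and -0.2.

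**Figure D1:**
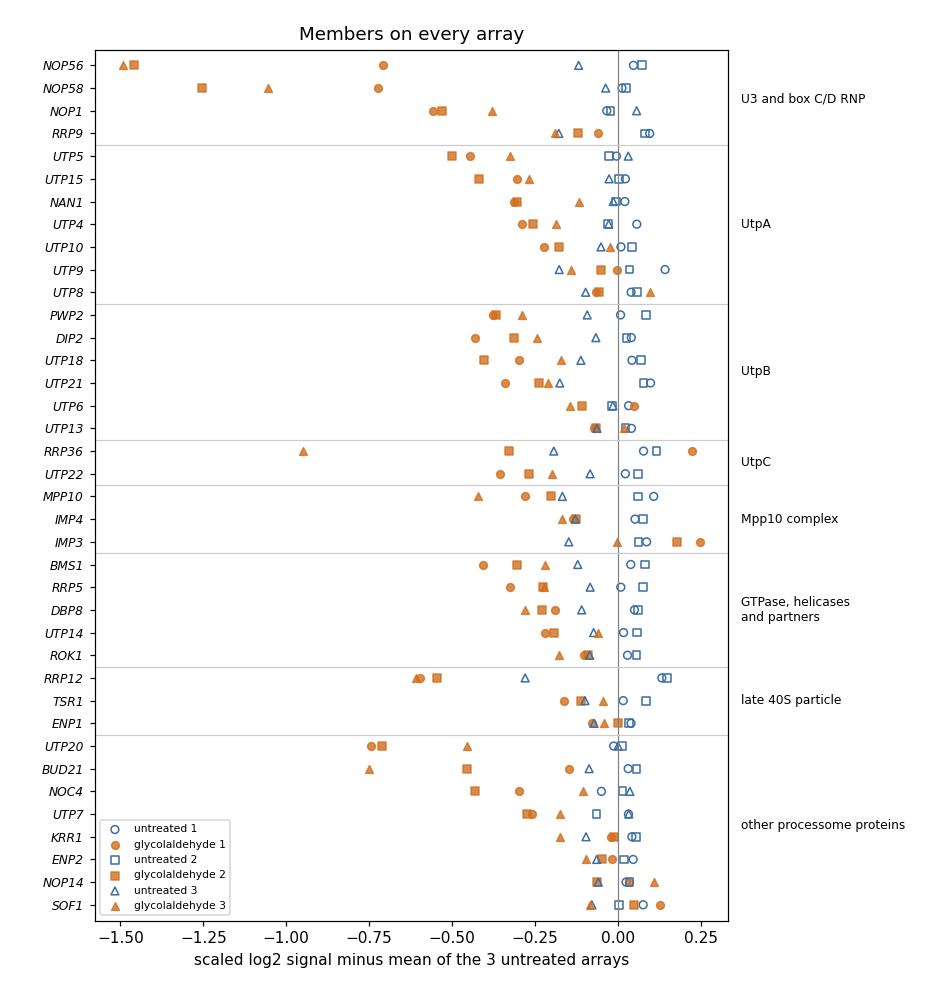
Each row is 1 gene and each point 1 array; the horizontal axis is the scaled log2 signal minus the mean of the 3 untreated arrays, with open blue marks for untreated and filled orange marks for glycolaldehyde replicates 1 (circle), 2 (square) and 3 (triangle). NOP56 and NOP58 lie farthest to the left, and the glycolaldehyde marks of NOP56, BUD21 and RRP36 are spread widely.

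The size of these counts rests on how arrays were assigned and scaled. On the 4 arrays that both records place in the same group (untreated replicates 1 and 2, glycolaldehyde replicates 2 and 3), 21 of the 38 genes fell and 0 rose, where 22.3% of all tested genes fell, and 18 of the 21 were called lower in both fits. That fit has 2 arrays a group. Its untreated arrays were both scanned on day 1, and glycolaldehyde replicate 3 was scanned on day 2. Treatment and scan day are therefore partly confounded in it. In the scanner-file record 0 genes of any kind were called in limma (0.0% of 5924, smallest adjusted p = 0.919), and 134 of all genes and 2 of the 38 had an unadjusted p under 0.05. There the log2 change was below 0 for 38 of 38 processome genes, with a median of -0.11, where 50.3% of all tested genes were below 0. That record shares 4 arrays, grouped alike, with the value table and is no separate evidence. Without any scaling between arrays 2 of the 38 fell, NOP56 and NOP58, and 171 of all tested genes fell. The median log2 change of the 38 was then -0.26, beside -0.24 with scaling.

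Among the processome genes, the largest falls were those of NOP56 and NOP58, which encode proteins of the U3 and other box C/D particles. The genes listed with them changed less. NOP1 had a log2 change of -0.49, smaller than those of UTP20 (-0.64) and RRP12 (-0.58) from other groups. RRP9 had a log2 change of -0.12 and did not pass. NOP56 encodes a core scaffold protein of every box C/D particle. Its signal, given from here on as a percentage of the 75th percentile of all probes on the same array (the relative signal), was 374%, 380.3% and 333% on untreated arrays 1 to 3, and 222%, 132% and 129% on glycolaldehyde arrays 1 to 3. The groups did not overlap, but the first glycolaldehyde array stood well above the other two. NOP56 fell by 1.22 ± 0.20 in log2 units (standard error, with n = 3 arrays a group; adjusted p = 0.00157 in limma), to 43.0% of the untreated level. The array that stood apart is one of those that change group between the records, and without it the log2 change was -1.48. On the 4 agreed arrays it was -1.53 (adjusted p = 6.3e-05 in limma).

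NOP58, the partner that pairs with Nop56 across the particle, had relative signals of 194%, 195% and 187% without and 116%, 80.4% and 92.3% with glycolaldehyde. All 3 glycolaldehyde arrays were far below the untreated ones, again with replicate 1 the highest. NOP58 fell by 1.01 ± 0.12 (adjusted p = 0.000412), with log2 changes of -1.01 within scan day 1 and -1.02 within scan day 2. The 7 spots of a probe on 1 array had an SD of at most 0.0776 for NOP56 and 0.0832 for NOP58 on the log2 scale, far below the distance between the glycolaldehyde arrays, which spanned 0.78 for NOP56 and 0.53 for NOP58. Over all tested genes the median span of the glycolaldehyde arrays was 0.144, and only 0.437% of genes spanned as much as NOP56. The reading frame YOR309C, whose number adjoins NOP58 (YOR310C) and which has no entry in the reference name table, fell by 1.098 ± 0.13 (adjusted p = 0.00043 in limma). YLR198C, whose number adjoins NOP56 (YLR197W) in the same way, fell by 0.59 ± 0.14 (adjusted p = 0.00774 in limma). The relative signal of YLR198C was low, at 2.5% to 2.7% without and 1.5% to 2.2% with glycolaldehyde. Both reading frames were also higher on glycolaldehyde array 1 than on array 2, by 0.50 and 0.49 on the log2 scale. They were picked after their values were seen, and whether their probes share signal with NOP58 and NOP56 was not tested.

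NOP1, the methyltransferase of the same particles (fibrillarin in animals), fell less and more evenly. Its relative signals were 415%, 418% and 442% without and 289%, 294% and 326% with glycolaldehyde, so that the groups lay well apart. NOP1 fell by 0.49 ± 0.07 (adjusted p = 0.000669), to 71.2% of the untreated level. RRP9, which is found in the U3 particle and not in the other box C/D particles, did not pass: its relative signals were 48.4%, 48.0% and 40.04% without and 43.4%, 41.7% and 39.7% with glycolaldehyde. The untreated array of scan day 2 overlapped the glycolaldehyde range. Its log2 change was -0.12 ± 0.08 (adjusted p = 0.255), and it passed only without untreated replicate 3 (-0.21, adjusted p = 0.0186) among the fits that leave out 1 array, and on the 4 agreed arrays (-0.24, adjusted p = 0.0251).

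UtpA is the first module to bind the nascent precursor, and in yeast several of its proteins are also tied to transcription of ribosomal DNA. Its 7 genes had a median log2 change of -0.24; 4 of them fell and 3 did not pass. UTP5 had relative signals of 62.6%, 61.7% and 64.2% without and 46.2%, 44.4% and 50.2% with glycolaldehyde, and UTP15 had 121%, 119% and 117% without and 96.1%, 88.8% and 98.6% with it. In both genes the groups were clearly separated. UTP5 fell by 0.42 ± 0.06 (adjusted p = 0.00101) and UTP15 fell by 0.33 ± 0.06 (adjusted p = 0.00246). NAN1 (also named UTP17) and UTP4 fell, with log2 changes of -0.24 ± 0.07 and -0.24 ± 0.06 (adjusted p = 0.0162 and 0.00811); the call of NAN1 was lost without glycolaldehyde replicate 1 or 2 or untreated replicate 1 (adjusted p up to 0.0676) and on the 4 agreed arrays (0.0711). UTP10, UTP9 and UTP8 had log2 changes of -0.14, -0.07 and -0.01 and did not pass. UTP8 was the flattest of the module, with 77.5%, 78.5% and 70.5% without and 72.0%, 72.5% and 80.7% with glycolaldehyde, and these ranges overlapped. UTP10 passed without glycolaldehyde replicate 3 (adjusted p = 0.0239). Within scan day 1 alone UTP8 passed as lower (-0.11, adjusted p = 0.0451 in limma), while within scan day 2 its log2 change was 0.20. Differences between genes of the module were not tested.

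UtpB, which follows UtpA and contacts the U3 RNA, is made mostly of tandem beta-propeller proteins. Its 6 genes had a median log2 change of -0.28; 4 of them fell and 2 did not pass. PWP2 had 47.1%, 49.7% and 43.9% without and 36.1%, 36.3% and 38.3% with glycolaldehyde and fell by 0.35 ± 0.06 (adjusted p = 0.00286). DIP2 had 95.7%, 94.7% and 88.8% without and 69.0%, 74.8% and 78.5% with it and fell by 0.33 ± 0.07 (adjusted p = 0.00434). In both the groups did not overlap, and the scan day 2 arrays were the closest pair across the groups. UTP18 and UTP21 fell, with log2 changes of -0.29 ± 0.08 and -0.26 ± 0.08 (adjusted p = 0.0163 and 0.0311), but each lost its call without untreated replicate 1 or 2 or glycolaldehyde replicate 1 or 2 (adjusted p up to 0.0634 and 0.107). UTP6 and UTP13 had log2 changes of -0.07 ± 0.06 and -0.04 ± 0.06 (adjusted p = 0.408 and 0.598). UTP13 had 87.7%, 86.6% and 81.6% without and 81.2%, 81.5% and 86.4% with glycolaldehyde, so its groups overlapped.

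**Figure D2:**
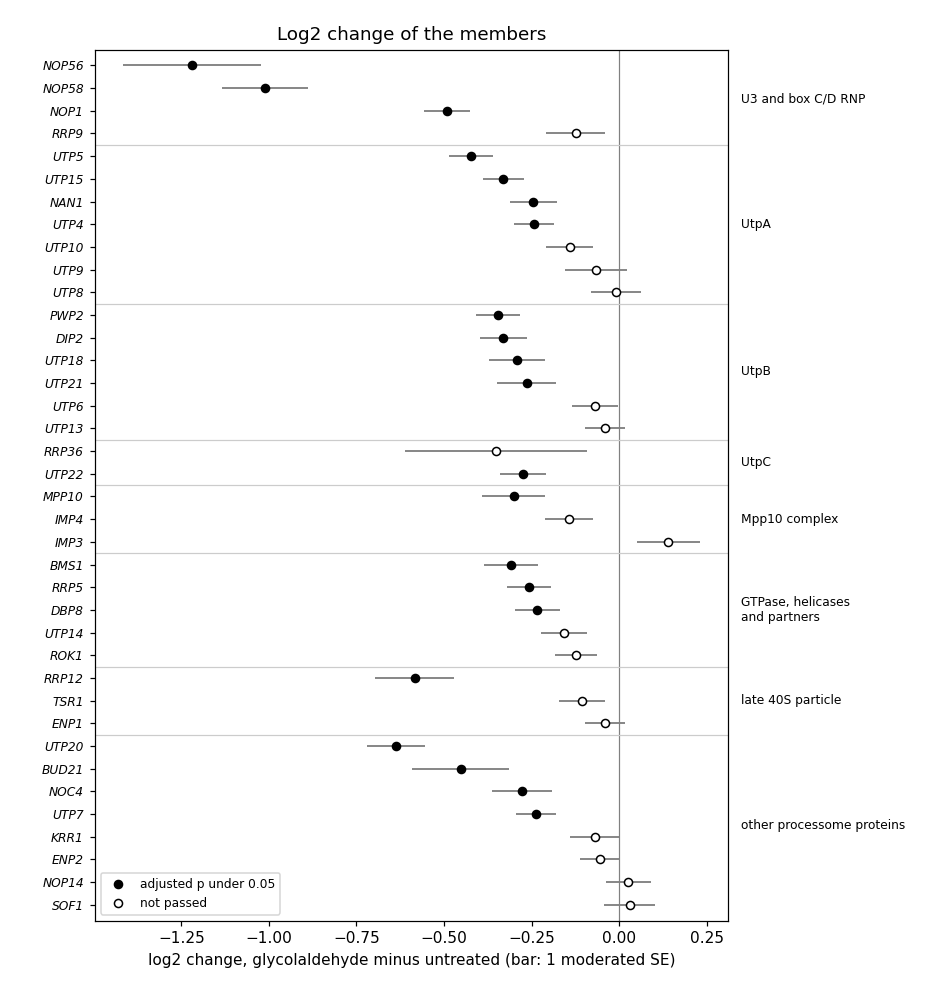
Log2 change, glycolaldehyde minus untreated, of each of the 38 genes by module (points; bars are 1 moderated standard error, n = 3 arrays per group), filled where the adjusted p was under 0.05. Filled points lie between -1.22 (NOP56) and -0.23 (DBP8), and each module holds at least 1 open point.

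In UtpC, a module that also holds casein kinase II in yeast, UTP22 fell and RRP36 did not pass. UTP22 had relative signals of 102%, 105% and 95.1% without and 78.8%, 83.8% and 87.8% with glycolaldehyde, with no overlap, and fell by 0.27 ± 0.07 (adjusted p = 0.00954). RRP36 had 14.9%, 15.3% and 12.4% without and 16.5%, 11.2% and 7.31% with glycolaldehyde. The first glycolaldehyde array was the highest of all 6 and the third the lowest. Its log2 change was -0.35 ± 0.26 (adjusted p = 0.288), and only 0.118% of all tested genes spanned as much as its 1.17 over the glycolaldehyde arrays. Without glycolaldehyde replicate 1 it passed (-0.64, adjusted p = 0.0309), and so it did on the 4 agreed arrays (-0.74, adjusted p = 0.0207).

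The Mpp10 complex has 3 proteins, Mpp10, Imp3 and Imp4, of which Imp3 and Imp4 help U3 pair with the precursor. Of their genes 1 fell and 2 did not pass. MPP10 fell by 0.30 ± 0.09 (adjusted p = 0.0247), from 29.1%, 28.1% and 24.04% to 22.2%, 23.5% and 20.2%. The groups came close, and the call was lost without untreated replicate 1 or 2 or glycolaldehyde replicate 1 or 3 (adjusted p up to 0.0859). IMP4 had a log2 change of -0.14 ± 0.07 (adjusted p = 0.11); it passed without untreated replicate 3 (adjusted p = 0.0114) and on the 4 agreed arrays (adjusted p = 0.0366). IMP3 had the highest log2 change of the 38, 0.14 ± 0.09 (adjusted p = 0.227). Its relative signals were 19.4%, 19.0% and 16.5% without and 21.6%, 20.6% and 18.2% with glycolaldehyde, so that each glycolaldehyde array exceeded the untreated array of the same number while the groups overlapped. With the replicate number as a block IMP3 passed as higher (adjusted p = 0.0299), and IMP4 and ROK1 as lower (0.0459 and 0.0479); the block lost 0 of the 21 calls. In that blocked fit 29.1% of all tested genes fell and 36.6% rose.

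Of 5 genes for enzymes that drive the particle forward and for their partner proteins, 3 fell and 2 did not pass. BMS1, a GTPase of the processome, had relative signals of 73.8%, 76.1% and 66.1% without and 54.3%, 58.3% and 61.8% with glycolaldehyde. These groups did not overlap, and BMS1 fell by 0.31 ± 0.08 (adjusted p = 0.0108). RRP5, an RNA-binding protein needed for both subunits and a partner of the helicase Rok1, fell by 0.26 ± 0.06 (adjusted p = 0.0104), and DBP8, a DEAD-box helicase, fell by 0.23 ± 0.06 (adjusted p = 0.018). The call of DBP8 was lost without untreated replicate 1 or 2 or glycolaldehyde replicate 2 (adjusted p up to 0.0712). ROK1 itself had 35.5%, 36.1% and 32.8% without and 32.4%, 32.7% and 30.8% with glycolaldehyde: the groups touched without overlapping, and its log2 change of -0.12 ± 0.06 did not pass (adjusted p = 0.12; 0.0351 without untreated replicate 3). UTP14, which activates a processome helicase, had a log2 change of -0.16 ± 0.07 (adjusted p = 0.0766) and passed without untreated replicate 3 or glycolaldehyde replicate 3 (lowest adjusted p = 0.0282).

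Among the proteins that stay with the late pre-40S particle, RRP12 fell and ENP1 and TSR1 did not pass. RRP12, a factor in the export of both subunits, had 130.2%, 132% and 97.9% without and 78.5%, 81.5% and 77.8% with glycolaldehyde. The glycolaldehyde arrays lay within a narrow band, and the untreated array of scan day 2 lay between them and the other untreated arrays. RRP12 fell by 0.58 ± 0.11 (adjusted p = 0.00361), with log2 changes of -0.71 within scan day 1 and -0.33 within scan day 2. TSR1, a GTPase-like protein, had a log2 change of -0.11 ± 0.07 (adjusted p = 0.213). ENP1 had 38.4%, 38.3% and 35.6% without and 35.4%, 37.4% and 36.4% with glycolaldehyde, with overlapping groups and a log2 change of -0.04 ± 0.06 (adjusted p = 0.592).

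Of the 8 remaining processome proteins 4 fell and 4 did not pass. UTP20, a giant scaffold of helical repeats, had 109%, 111% and 110.1% without and 65.7%, 67.1% and 80.3% with glycolaldehyde. The untreated arrays were nearly equal and all glycolaldehyde arrays far below them. UTP20 fell by 0.64 ± 0.08 (adjusted p = 0.000555), the next largest fall after NOP56 and NOP58. BUD21 (also named UTP16) had 70.5%, 71.7% and 65.0% without and 62.3%, 50.3% and 41.0% with glycolaldehyde. Its groups did not overlap, but the glycolaldehyde arrays were spread over 0.60 on the log2 scale, a span reached by 1.24% of all tested genes. BUD21 fell by 0.45 ± 0.14 (adjusted p = 0.0264), a call lost without untreated replicate 1 or 2 or glycolaldehyde replicate 2 (adjusted p up to 0.0759).

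NOC4 and NOP14 encode proteins that bind each other, yet their values differed in these arrays. NOC4 fell by 0.28 ± 0.09 (adjusted p = 0.0271), a call that held without glycolaldehyde replicate 3 and was lost without each of the other 5 arrays (adjusted p up to 0.0901) and on the 4 agreed arrays (0.117). NOP14 had 23.7%, 23.8% and 22.3% without and 23.8%, 22.3% and 25.1% with glycolaldehyde, and a log2 change of 0.03 ± 0.06 (adjusted p = 0.756). The difference between NOC4 and NOP14 was not tested. UTP7, a beta-propeller protein, fell by 0.24 ± 0.06 (adjusted p = 0.0103), a call lost on the 4 agreed arrays (0.0603). KRR1, an RNA-binding protein, and the beta-propeller proteins ENP2 and SOF1 had log2 changes of -0.07, -0.05 and 0.03 and did not pass.

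**Figure D3:**
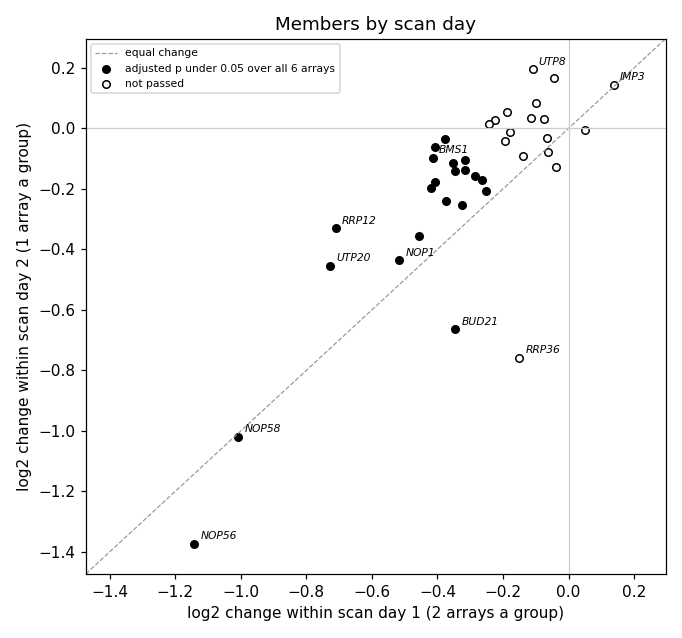
Log2 change of each of the 38 genes within scan day 1 (horizontal, 2 arrays per group) and within scan day 2 (vertical, 1 array per group); the dashed line marks equal change, and filled points passed over all 6 arrays. Most points lie above the line, with a median of -0.27 on day 1 and -0.11 on day 2, while NOP58 lies on it and NOP56, BUD21 and RRP36 below it.

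The changes were mostly smaller on scan day 2. The median log2 change of the 38 genes was -0.27 within scan day 1 and -0.11 within scan day 2, beside 0.04 and 0.02 over all tested genes. The log2 change was below 0 for 36 of the 38 genes on day 1 and for 29 on day 2. Over all tested genes it was below 0 for 44.7% on day 1 and 47.9% on day 2. Its size was smaller on day 2 for 29 of the 38, or 76.3%, as for 59.3% of all tested genes. The untreated array of day 2 was the lowest untreated array for 31 of the 38 genes, against 46.5% of all tested genes. BMS1 had log2 changes of -0.42 and -0.10 on days 1 and 2, and UTP21 had -0.38 and -0.04. BUD21, with -0.35 and -0.66, and NOP56, with -1.14 and -1.37, went the other way. Day 2 holds 1 array per group, so the difference between days was not tested. In the scanner-file record the untreated array of day 2 is attached to a glycolaldehyde sample. Glycolaldehyde replicate 1, scanned on day 1, is attached there to an untreated sample. The change within each day thus rests on an array whose group depends on the record.

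Other genes of the pathway were read from lists of 47 further 40S factors, 4 box H/ACA proteins, 67 factors of 60S assembly, 15 genes of RNA polymerase I and its factor Rrn3, 57 genes of 40S ribosomal proteins and 11 regulators. Of the 47 further 40S factors 10 fell and 4 rose, with a median log2 change of -0.05. The helicase gene HAS1, which acts on both subunits, fell by 0.62 ± 0.07, and the U3-associated factor gene ESF1 and the kinase gene RIO1 fell too, with log2 changes of -0.56 ± 0.15 and -0.54 ± 0.12. Thus the share that fell in that list, 21.3%, lay near the 23.5% of all tested genes. The difference between it and the 38 genes was not tested, and those 38 were chosen with earlier results of these data known.

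Among 60S assembly factors 26 of 67 fell and 2 rose, with a median of -0.15. RRP14, the helicase gene DBP2 and REA1, a giant ATPase, had the largest falls there, with log2 changes of -1.41 ± 0.28, -1.09 ± 0.09 and -0.89 ± 0.11. RRP14 shared the high first glycolaldehyde array of NOP56, with relative signals of 54.0%, 26.5% and 26.2% on the glycolaldehyde arrays and 98.4%, 100.4% and 70.5% on the untreated ones. In the box H/ACA particle, which makes pseudouridine, 1 of 4 genes fell and 1 rose. The pseudouridine synthase gene CBF5 fell by 0.64 ± 0.13, and NOP10 rose by 0.32 ± 0.08. CBF5 had 161%, 167% and 195% without and 137%, 99.7% and 101% with glycolaldehyde, again with the first glycolaldehyde array highest.

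For RNA polymerase I 6 of 15 genes fell and 3 rose, with a median of -0.07: the 2 largest subunits, RPA135 and RPA190, had log2 changes of -0.47 ± 0.08 and -0.35 ± 0.08, and RRN3, its initiation factor, rose by 0.46 ± 0.06. Genes of 40S ribosomal proteins had a median of 0.01, and 6 of 57 fell and 3 rose. RPS9A fell by 0.83 ± 0.07, and RPS30A and RPS30B, nearly identical paralogues that the probes may not tell apart, rose by 0.41 ± 0.11 and 0.40 ± 0.10. Their median was 0.06 within scan day 1 and -0.09 within scan day 2. The 38 assembly genes had medians of -0.24 over all 6 arrays, -0.27 within scan day 1 and -0.11 within scan day 2. The lists thus lay close together on day 2, when 87.7% of the ribosomal protein genes and 76.3% of the 38 were below 0. Over all tested genes 47.9% were below 0 on that day. On the 4 agreed arrays the medians were -0.09 for ribosomal protein genes and -0.25 for the 38, and in the scanner-file record they were -0.12 and -0.11. The difference between the lists was not tested.

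**Figure D4:**
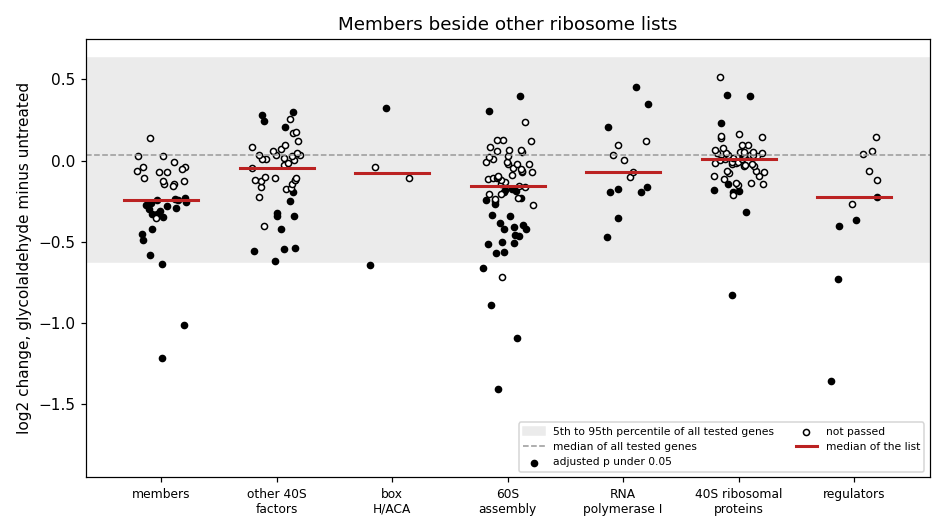
Log2 change, glycolaldehyde minus untreated, of each gene in the 38-gene set and in 6 other lists (points, filled where the adjusted p was under 0.05), with each list's median as a red line; the grey band spans the 5th to 95th percentile of all tested genes, -0.62 to 0.63, and the dashed line is their median. The medians run from -0.24 for the 38 genes to 0.01 for 40S ribosomal proteins.

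Of 11 regulators of ribosome genes 5 fell and 0 rose, and they included both repressors and activators. DOT6 and TOD6, paralogous repressors of ribosome assembly genes, fell, with log2 changes of -1.36 ± 0.17 (adjusted p = 0.000547) and -0.41 ± 0.06 (adjusted p = 0.00104). DOT6 had relative signals of 256%, 271% and 336% without and 100.5%, 94.2% and 146% with glycolaldehyde, with no overlap. SFP1, an activator of the same genes, fell by 0.73 ± 0.08 (adjusted p = 0.000238), from 40.1%, 43.0% and 35.4% to 24.1%, 22.9% and 24.1%. The repressor gene STB3 fell by 0.37 ± 0.11, and FHL1, an activator of ribosomal protein genes, fell by 0.23 ± 0.06. SCH9, IFH1, CRF1, HMO1, TOR1 and TOR2 did not pass, with log2 changes between -0.27 (SCH9) and 0.14 (CRF1).

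Members also adjoin other ribosome genes on the chromosomes. In the gene order of the reference assembly R64, used for order only, 0 pairs of the 38 genes lay next to each other, and 7 of them adjoined a gene of the other lists, 3 a 40S ribosomal protein gene and 4 a 60S assembly gene. By their names' strand letters RRP5 and RPS10B, UTP6 and RPS18A, and TSR1 and RPS29B are transcribed away from each other. RRP5 fell by 0.26 ± 0.06 while RPS10B had a log2 change of 0.03 ± 0.05 (adjusted p = 0.635); in the other pairs neither gene passed. DBP8 and its neighbour NMD3, the 60S export adapter, both fell, with log2 changes of -0.23 ± 0.06 and -0.42 ± 0.05. Of the remaining pairs RIX1 fell by 0.27 ± 0.07 beside UTP9, which did not pass, NOC4 fell beside RRP15, which did not pass, and neither UTP13 nor RSA3 passed.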

How the data were processed

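Each of 6 yeast RNA samples had 1 Agilent array in 1 colour (design 015072, 7 spots for each of 6256 probes). Per the file headers, the authors extracted spot intensity with Agilent Feature Extraction 11.0.1.1, subtracting background; values are linear and were not normalized from array to array. The submitters' processing notes also list R 3.0.2; its role is not given in the sources used here. The deposited value table holds the plain mean intensity of a probe's 7 processed signals, with column medians of 3307 to 5055; its scale is linear and uncentred. The flags used, per the file headers, are 0 or 1 per spot (other). Here log2 of the table's intensity minus the array's 75th percentile was tested with limma 3.58.1 (lmFit, then eBayes; R 4.3.3). Treatment was the sole term and tests were two-sided; SE is limma's moderated standard error. A probe was well above background on an array when over 0.5 of its spots were, and was tested when it was so on every array of 1 group or both; between 94.8% and 97.0% of probes passed per array and 0 spots were saturated. For the 29 identifiers with several probes the brightest was kept. Of 6225 identifiers 5720 matched the reference name table. Values within a group measure the spread between 3 cultures together with that of slide and scan day. Replicate 3 of each group lay on another slide and scan day than replicates 1 and 2. The number of arrays limits precision.

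The members and lists were chosen with earlier results of these data known. All members may be named; values per array are given for the 12 called members with the largest changes and the least changed in each module, and, beyond that rule, for others whose arrays were spread. In the other lists the 3 largest called changes and all called regulators are named. Same-numbered arrays correlated in their deviations from group means with 0.329, 0.408 and 0.623 over 5877 genes, all above 0.1. The replicate number was therefore used as a block in an alternative fit, and the main fit did not use it. Replicates 1 and 2 of both groups were scanned on day 1 and replicate 3 of both on day 2. These correlations thus cannot tell cultures paired by number from arrays that share a scan day. The alternatives were other signals, scalings, filters, records, blocks and arrays left out. The fit was tested on simulated data. The normexp alternative used the median spot signal. No promoter motifs were searched, and no column was left without a sample (0 unmapped).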

Additional observations from a re-analysis of the deposited data

How the results depend on the processing

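The count of the 38 processome genes that fell was 14 to 24 when 1 array was left out, beside 1121 to 1496 of all tested genes; it was 28 within scan day 1 (1790 of all tested genes), 2 without scaling, 0 in the scanner-file record and 21 to 24 under the other alternatives; 14 of the 21 calls held without any one array. One gene, IMP3, passed as higher with the replicate block (1 rose), with scan day as a term (1) and within scan day 1 (1). Their median was -0.11 in the scanner-file record and -0.11 within scan day 2. The replicate block changed no other call among the 38 than those given in the report. Single genes near 0 changed sign: UTP8 was 0.0020 with normexp, 0.0043 with slide as a random block and 0.043 with replicates 1 and 2 averaged; NOP14 was -0.0024 with median scaling, -0.036 in the scanner-file record, -0.0074 on the agreed arrays and -0.044 within scan day 1; SOF1 was -0.0058 with quantile normalization, -0.11 in the scanner-file record and -0.056 on the agreed arrays; IMP3 was -0.12 in the scanner-file record. Without 1 array the log2 change ran from -0.061 to 0.021 for UTP8, -0.15 to 0.0060 for UTP9, -0.014 to 0.071 for NOP14 and -0.017 to 0.089 for SOF1. The cause was not tested.

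Without scaling 171 of all genes fell and 148 rose, and in the scanner-file record 0 and 0. In the other lists the scanner-file record called 0 genes throughout. Without scaling 0 further 40S factors, 3 of 60S assembly, 0 of box H/ACA, 0 of RNA polymerase I, 1 of 40S ribosomal proteins and 1 regulator fell, and 0 rose in any of them. Further 40S factors fell in 18 cases with scan day as a term, 19 within scan day 1 and 7 to 16 without 1 array, and rose in 2 on the agreed arrays, 7 with the replicate block, 8 with scan day, 7 with slide, 8 within scan day 1 and 1 to 5 without 1 array; their median was -0.11 on the agreed arrays. For 60S assembly 4 rose with the replicate block, 6 with scan day, 4 with slide and 4 within scan day 1, and 17 to 32 fell without 1 array. For RNA polymerase I 5 rose within scan day 1, without 1 array 2 to 6 fell and 1 to 3 rose, and medians were -0.10 (median scaling), -0.10 (quantile), -0.045 (scanner-file record), -0.10 (agreed arrays), -0.047 (scan day 2) and -0.087 to -0.030 (without 1 array). For 40S ribosomal proteins 3 fell with normexp, 11 with the replicate block, 12 with scan day, 11 with slide, 10 within scan day 1 and 2 to 6 without 1 array, while 5 rose with normexp, 8 with quantile, 5 with the block, 5 with scan day, 5 with slide, 13 within scan day 1 and 1 to 6 without 1 array; their median was -0.12 in the scanner-file record. Of regulators 8 fell within scan day 1 and 3 to 6 without 1 array, 1 rose with scan day, and medians were -0.090 (scanner-file record) and -0.11 (scan day 2).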

Other observations

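The high first glycolaldehyde array of NOP56 was shared by few genes. Of 5944 tested genes 12 differed between glycolaldehyde replicates 1 and 2 by at least as much as NOP56 (0.75 on the log2 scale), and in all 12 replicate 1 was the higher. They were RCK1, TMA23, RRP14, EAF7, PXR1, ANS1, YOR008W-B, YGR035C, CSN9, NOP53, CHM7 and NOP56. The difference was 1.13 for TMA23, 1.03 for RRP14, 0.97 for PXR1 and 0.76 for NOP53, named here after their values were seen. Untreated replicates 1 and 2 differed by -0.23, -0.03, -0.02 and 0.06 in these 4 genes. Over all 12 genes the untreated difference ran from -0.28 (YOR008W-B) to 0.64 (RCK1). Their log2 changes ran from -1.91 (RCK1) to 0.43 (ANS1). In YGR035C glycolaldehyde replicate 1 exceeded replicate 3 by only 0.19. TMA23, RRP14 and PXR1 fell, with log2 changes of -1.23 ± 0.32, -1.41 ± 0.28 and -1.46 ± 0.33, and NOP53 did not pass (log2 change -0.72 ± 0.27, adjusted p = 0.0581 in limma). Glycolaldehyde replicates 1 and 2 lay on the same slide and scan day, and in the scanner-file record that replicate 1 array is attached to an untreated sample.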
